A study of Mus musculus with 6 samples.

Results

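The broad H3K27ac domains of the mouse retina are 79 genomic regions of at least 2000 bp that carried peaks in every one of 6 peak lists and held the transcription start site (TSS) of a protein-coding gene. They were found by merging the peaks of all 6 lists on chromosomes 1 to 19, X and Y into 39942 union regions (the union of overlapping peaks), of which 10529 were covered in all 6 lists, 130 were 2000 bp or longer and 124 were both. The 79 domains made up 0.198% of the union regions and 1.47% of the 5386 shared regions with a coding TSS, and held the TSS of 86 protein-coding genes. The members were selected on merged width and presence in all lists, so their width, and the fact that all lists cover them, are a description and not a result.

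The lists came from chromatin immunoprecipitation and sequencing (ChIP-seq) of bulk retina of WT mice aged 3 months at the start, with an antibody to histone H3 acetylated at lysine 27. In the 4xIOP group (3 retinas) the intraocular pressure (IOP) of 1 eye had been raised to 30 mmHg for 1 h, 4 times. The control group (3 retinas) was the untreated contralateral eye of such animals, and tissue was taken 2 days after the final elevation. The strain was not given in the labels, and the protocol text names dasatinib and its vehicle without saying which animals of these samples received either. Of the 6 lists, 4 carry in their own name the opposite group to their label. They are replicates 1 and 2 of both control and 4xIOP. Groups are given here as labelled. Name and label match in control replicate 3 and 4xIOP replicate 3, and the differences in the per-list measures between these 2 lists alone are given with the limits at the end.

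Acetylation of this lysine is placed by the acetyltransferases EP300 and CBP on the nucleosomes beside active promoters and enhancers, while the start site itself is usually free of nucleosomes. At most active promoters the mark forms a short block just downstream of the TSS. Long blocks are known from genes that hold a cell's identity and from strongly CpG-rich promoters. In the retina, rod photoreceptors are the most numerous cells, and bulk chromatin is therefore mostly theirs.

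The lists differed in size before any domain was considered. They held between 16195 and 36509 peaks, which together covered between 6.66 and 20.1 Mb, with control replicate 3 the highest and 4xIOP replicate 3 the lowest on both counts. The number of sequenced reads was not in the lists. The number of fragments at each summit (the highest point of a peak) was recovered from the deposited fold and p-value, and its median over all peaks was 37 in control replicate 3 and between 26 and 32 in the other lists. The shortest peak, taken as a stand-in for the fragment length set in peak calling, was 220 to 232 bp in control replicate 1 and 4xIOP replicates 1 and 2 (called lists with longer fragments) and 187 to 195 bp in the other 3 lists (shorter fragments). Peaks near the genes that define rods were present (Nrl and Gnat1 in 6 lists, Crx in 5), while defining genes of the pigment epithelium, microglia, endothelium and lens (Rpe65, Best1, Cx3cr1, P2ry12, Cldn5, Cdh5, Cryaa and Mip) had no peak within 2500 bp of a TSS in any list.

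To show what the start of such a domain looks like, the 200 bases before the TSS are given for 5 domains, with each CpG dinucleotide in capitals. They were read 5′ to 3′ on the strand of the gene from the RefSeq genome of build GRCm38, and lie inside their domain and outside every annotated exon. Ubtf (chr11:102319097-102319296, minus strand), Insm1 (chr2:146221721-146221920, plus strand) and Hnrnpa0 (chr13:58128557-58128756, minus strand) were taken in order of mean covered length from domains with such a stretch, and Sall2 (chr14:52316324-52316523, minus strand) and Asrgl1 (chr19:9135637-9135836, minus strand) were among the domains poorest in CpG.
Ubtf: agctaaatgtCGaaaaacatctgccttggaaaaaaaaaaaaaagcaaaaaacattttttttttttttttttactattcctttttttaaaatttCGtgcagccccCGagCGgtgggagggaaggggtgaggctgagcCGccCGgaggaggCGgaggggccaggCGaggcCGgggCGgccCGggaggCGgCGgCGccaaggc
Insm1: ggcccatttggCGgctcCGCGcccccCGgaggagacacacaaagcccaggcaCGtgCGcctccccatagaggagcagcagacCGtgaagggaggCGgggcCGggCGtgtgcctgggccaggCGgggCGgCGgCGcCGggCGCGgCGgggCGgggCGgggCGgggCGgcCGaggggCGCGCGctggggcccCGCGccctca
Hnrnpa0: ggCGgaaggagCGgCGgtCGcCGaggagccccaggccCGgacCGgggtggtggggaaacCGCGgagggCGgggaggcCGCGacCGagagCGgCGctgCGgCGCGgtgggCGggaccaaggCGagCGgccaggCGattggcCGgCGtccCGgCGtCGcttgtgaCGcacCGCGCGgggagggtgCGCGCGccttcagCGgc
Sall2: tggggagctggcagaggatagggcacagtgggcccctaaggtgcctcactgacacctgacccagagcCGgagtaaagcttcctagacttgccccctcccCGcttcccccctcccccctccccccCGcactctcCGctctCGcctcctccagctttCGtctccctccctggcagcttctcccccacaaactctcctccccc
Asrgl1: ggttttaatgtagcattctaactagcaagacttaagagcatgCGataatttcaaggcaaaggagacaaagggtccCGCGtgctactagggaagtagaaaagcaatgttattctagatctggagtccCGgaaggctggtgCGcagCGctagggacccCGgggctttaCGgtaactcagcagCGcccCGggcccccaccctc
The number of CpG in these 200 bases was 14 in Ubtf, 28 in Insm1 and 35 in Hnrnpa0, against 6 in Sall2 and 10 in Asrgl1. In Ubtf the first CpG lies before runs of A and T, and the others follow these runs toward the TSS. In Insm1 and Hnrnpa0 they run through the whole stretch.

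Over whole domains the median GC content was 62.3% (lowest 34.6%, highest 76.2%) and the median ratio of observed to expected CpG was 0.742. Of the 79 domains, 62 had a ratio of 0.6 or more (78.5%), against 81.5% of the 5307 narrower shared regions with a coding TSS and 20% of the 45 shared regions of at least 2000 bp that hold no coding TSS. By this share the domains were thus close to other marked promoters, over whole regions of unlike length. In the 1001 bp centred on the TSS, the GC content of the 86 genes had a median of 66.3%, above the 60.6% of 5749 genes in narrower regions and the 55.1% of all 21938 coding genes. The median ratio of observed to expected CpG in this window was also higher, at 0.84 against 0.78 and 0.57. The share with a ratio of 0.6 or more was 86.05%, against 85.55% and 47.16%. The domains poorest in CpG over their whole length were those of Crocc (0.271), Reep2 (0.382) and Ppt1 (0.418), and the richest was that of Hnrnpa0 (1.06).

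Short motifs were searched on both strands in the same 1001 bp. The GC box GGGCGG, bound by SP and KLF factors, was present at 89.5% of the 86 domain genes, 89.6% of genes in narrower regions and 61.3% of all coding genes. The ETS motif CCGGAA was present at 36.0%, against 56.0% and 34.3%. The CCAAT box CCAAT was present at 48.8%, against 60.5% and 70.3%. The TATA box TATAAA stood at 14.0%, against 18.2% and 31.7%, and the E-box CACGTG at 19.8%, against 20.2% and 17.0%. The motif TAATCC of the photoreceptor factors CRX and OTX2 was present at 16.3%, against 19.7% and 23.3%, and the AP-1 motif TGANTCA at 5.81%, against 12.9% and 18.7%. These shares are descriptions of letters in a window.

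The merged width of the domains ranged from 2001 to 3821 bp with a median of 2132 bp, and 55 of the 79 were under 2200 bp. Only 9 exceeded 2500 bp, and 2 reached 3000 bp (Gm21738 and Ubtf). Just inside the limit lay Tlk2 (2001 bp), a kinase of chromatin assembly, and Tmem106c (2009 bp). Just outside lay Glb1l2 (1998 bp) and Cers4 (1997 bp). The limit thus cut through a continuous distribution.

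No single list showed most domains at that width, apart from 1. The length of a domain covered by the peaks of a list averaged 1448, 1403 and 2095 bp in control replicates 1 to 3 and 1451, 1373 and 1126 bp in 4xIOP replicates 1 to 3. The number of domains in which a list alone covered 2000 bp or more was 6, 5 and 52 in the controls and 3, 5 and 1 in 4xIOP. Control replicate 3 was the list with the largest covered length in 70 of 79 domains, and 4xIOP replicate 3 the one with the smallest in 42. In 24 domains no list reached 2000 bp, in 49 exactly 1 list did, and in 46 of these 49 it was control replicate 3. When the rule was applied to the other 5 lists without control replicate 3, 30 domains were found, and each of the 30 overlapped a domain of the full set. Without the list with the most peaks, most of the 79 thus fell short of the rule.

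**Figure D1:**
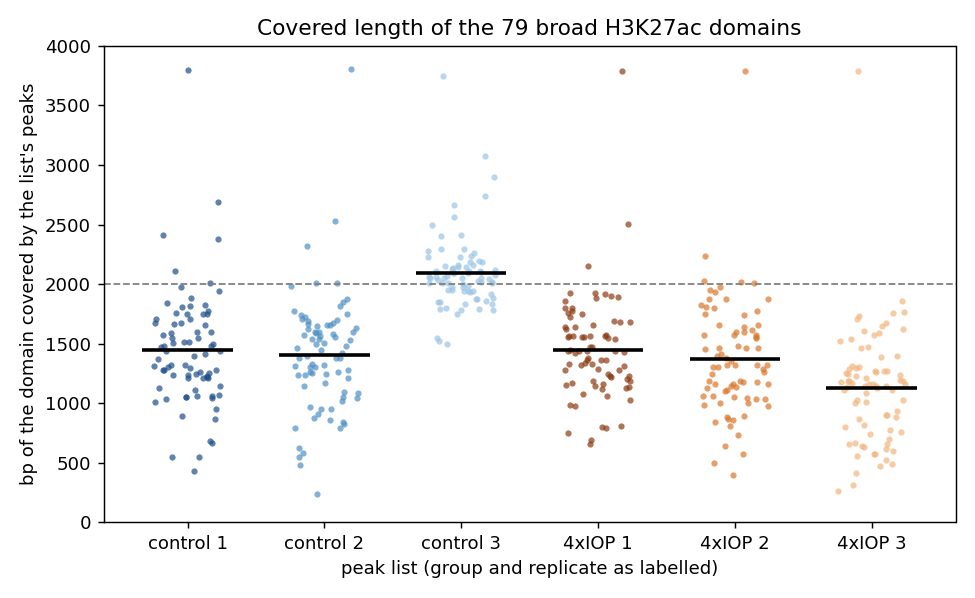
Each point is 1 of the 79 domains, the y axis is the length in bp covered by the peaks of the list on the x axis, black bars are means over domains and the dashed line marks 2000 bp. The points of control replicate 3 centre on 2095 bp, while the other 5 means lie between 1126 and 1451 bp.

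The stretch covered by all 6 lists at once was shorter still. Its median was 731 bp, or 31.7% of the domain, and in 3 domains (Nr3c2, Coro2b and Hk2) no base was covered in all 6 lists. Within a domain, a list had on average 1.78, 1.92 and 1.24 peaks in the controls and 1.86, 1.82 and 1.86 peaks in 4xIOP. Control replicate 3 covered 61 of 79 domains with a single peak, whereas the others did so in 18 to 32. A broad domain was thus in most lists a row of 2 or more shorter peaks.

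Gm21738, an annotated coding gene without a known role, had the widest domain (chr14:19415709-19419529, 3821 bp) and stood apart from the rest. The peaks covered 3801, 3808 and 3748 bp in the control lists and 3791, 3786 and 3792 bp in 4xIOP, each in 1 peak. It was the only domain of at least 2000 bp in all 6 lists. The fragments at its highest summit numbered 352, 347 and 281 in the controls and 350, 361 and 325 in 4xIOP, whereas the median over domains was 40 to 103. It was the domain with the lowest GC content (34.6%), and 83.8% of its bases were soft-masked as repeats in the reference. Of 20 words of 50 bases spread over it, 18 occurred once in the genome and the most frequent occurred 8 times. Whether reads of other genomic copies fell there was not tested.

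Ubtf, the gene of the transcription factor UBF that activates RNA polymerase I, had the second widest domain (chr11:102316968-102320171, 3204 bp, with exons and introns at the start of the gene). The peaks covered 2686, 2531 and 3073 bp in the control lists and 2508, 2016 and 1761 bp in 4xIOP. All lists but 4xIOP replicate 3 thus passed 2000 bp. Fold enrichment at its highest summit was 3.41, 3.18 and 3.42 in the controls and 3.06, 3.27 and 3.45 in 4xIOP.

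Doc2b, Rims2 and Camta1 had 3 of the 12 domains with the largest mean covered length. Doc2b encodes a calcium sensor of vesicle release, and its domain (chr11:75793685-75796355) was covered over 2412, 2317 and 2668 bp in the control lists and 1800, 2237 and 1163 bp in 4xIOP. Rims2, a scaffold of the presynaptic active zone (chr15:39197225-39199429), was covered more evenly, over 2011, 1778 and 1977 bp against 1915, 1877 and 1627 bp. Camta1, a calmodulin-binding transcription activator (chr4:151127076-151129582), had 1822, 1539 and 2405 bp against 1450, 1741 and 1312 bp. In Doc2b and Camta1 the longest cover was that of control replicate 3 and the shortest that of 4xIOP replicate 3.

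Other domains of the 12 with the largest mean covered length belong to Arid1b, Ncoa2, Msl1 and Insm1. Arid1b, a subunit of the BAF chromatin remodeller, had a domain (chr17:4994522-4996836) that was a single peak in every list, with 1811, 1871 and 2263 bp in the control lists and 1927, 1948 and 1854 bp in 4xIOP. All 6 lists shared 1763 bp of it. Ncoa2, a coactivator of nuclear receptors (chr1:13372664-13374728), had 1975, 1749 and 2009 bp against 1745, 1824 and 1646 bp. Msl1, the scaffold of an acetyltransferase complex (chr11:98794544-98796594), had 1677, 2012 and 1915 bp against 1554, 1452 and 1673 bp, so that every 4xIOP list lay below every control, as in 11.3% of all shared regions. Insm1, a zinc finger factor of neuronal and endocrine cells (chr2:146221481-146224047), had 1887, 1744 and 2567 bp against 1558, 1874 and 1023 bp.

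The remaining domains of these 12 were those of Ankrd33b (chr15:31365442-31368338), Amer2 (chr14:60377650-60379964), which encodes a regulator of Wnt signalling, and Cpeb2 (chr5:43233269-43235386), which binds a control element of mRNAs. Ankrd33b had 2376, 1847 and 2897 bp in the control lists and 1803, 2029 and 1227 bp in 4xIOP. Amer2 had 2110, 1725 and 2184 bp against 2155, 1931 and 1709 bp. Cpeb2 had 1706, 2012 and 2118 bp against 1686, 983 and 1729 bp. In each of the 3 the groups overlapped.

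**Figure D2:**
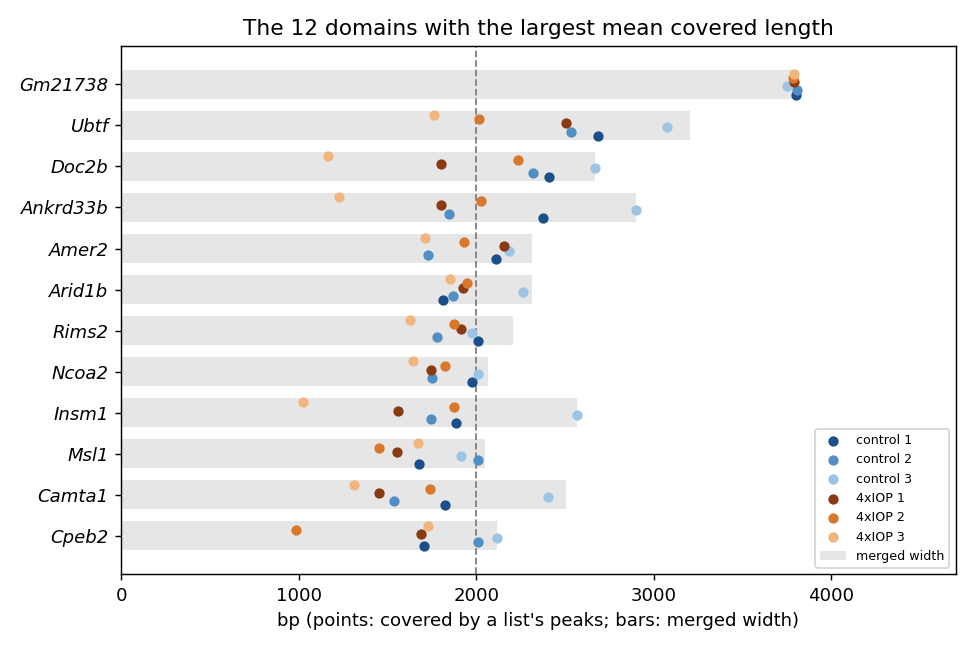
For the 12 domains with the largest mean covered length (y axis), points give the bp covered in each list and grey bars the merged width, on an x axis in bp with a dashed line at 2000 bp. Gm21738 is the only one whose 6 points lie together at the full width, and in Insm1 they spread from 1023 to 2567 bp.

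The most even domains after Gm21738, by the ratio of the shortest to the longest cover, were those of Tlk2 (1754, 1710 and 1790 bp in the controls, 1547, 1752 and 1571 bp in 4xIOP) and of Etnk1, an ethanolamine kinase (1677, 1464 and 1784 bp against 1641, 1654 and 1590 bp). The least even was that of Hk2, the glycolytic enzyme hexokinase, with 685, 233 and 1940 bp against 1229, 870 and 490 bp. Asrgl1, an asparaginase found in photoreceptors, had 1210, 1235 and 2021 bp against 1075, 1657 and 259 bp. Nr3c2, the mineralocorticoid receptor, had 1436, 1055 and 2291 bp against 1637, 1109 and 313 bp. In all of these uneven domains control replicate 3 was the longest, and in Asrgl1 and Nr3c2 4xIOP replicate 3 was the shortest.

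Of the 79 domains, 72 held the TSS of 1 coding gene, 36 on each strand, and 7 held those of 2 genes. The domain of Ncor1 and Pigl (chr11:62456671-62458840), a corepressor and an enzyme of GPI anchor synthesis on opposite strands, had 1442, 1083 and 2150 bp in the control lists and 1724, 1595 and 1305 bp in 4xIOP. Ctbp2 and Fgfr2, a corepressor and a growth factor receptor, shared chr7:133121617-133124357 with 1514, 1394 and 2741 bp against 1185, 1164 and 1158 bp. Pigp and Ttc3 shared chr16:94369666-94371773 with 1044, 952 and 2108 bp against 1247, 1101 and 1243 bp. Control replicate 3 was the longest in each of the 3. In that of Ctbp2 and Fgfr2 every 4xIOP list lay below every control, as in 11.3% of all shared regions.

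In the 72 domains with 1 gene, the mark reached further into the gene than away from it. The median extent was 781 bp upstream and 1402 bp downstream of the TSS, and 52 of 72 were longer downstream (72.2%). In the 4882 narrower regions with 1 gene the medians were 241 and 714 bp, and 84.1% were longer downstream. By annotation, a median of 20.7% of a domain was exonic, 50% intronic and 20.1% outside genes. Domains thus extended on both sides of the TSS, with the larger share inside the gene.

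Cover dipped just upstream of the TSS. At 50 bp upstream a domain was covered on average by 2.93 of the 6 lists, and 15.3% of domains by all 6. At 350 bp downstream the average was 5.35 lists, and at 150 bp upstream 3.36 lists. Further upstream the average fell again, to 2.93 lists at 500 bp, where 66.7% of the domains still extended. In 4xIOP replicate 3 the share of domains covered 50 bp upstream was 26.4%, in 4 other lists 40.3% to 47.2%, and in control replicate 3 87.5%. The TSS itself lay within a peak in 42, 40 and 74 of 79 domains in the controls and in 42, 35 and 26 in 4xIOP. In control replicate 3 the gap at the start site was therefore mostly bridged.

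**Figure D3:**
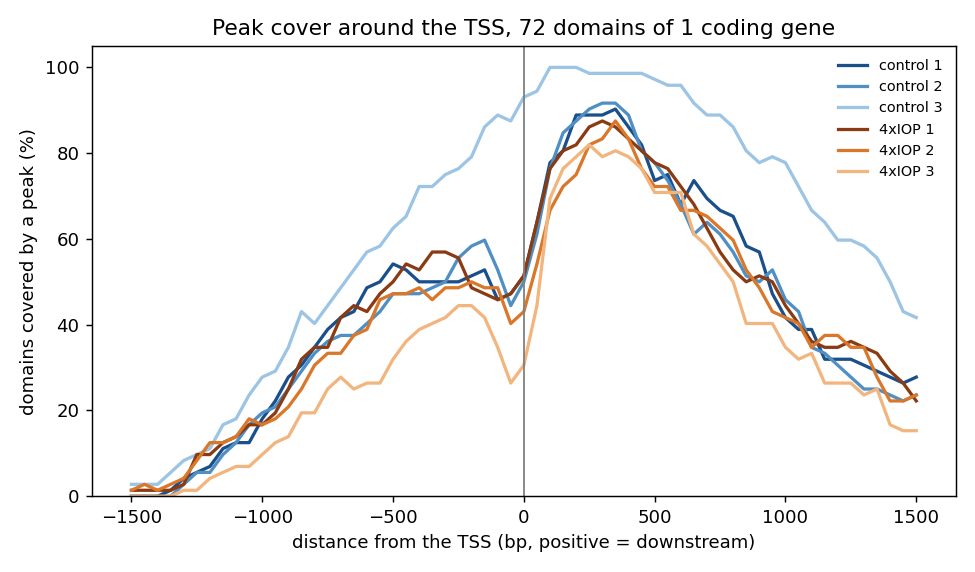
The share of the 72 domains with 1 coding gene that are covered by a peak (y axis, percent) is drawn for each list against distance from the TSS (x axis, bp, downstream positive). In 5 lists cover drops to between 26.4% and 47.2% at 50 bp upstream and rises to between 80.6% and 91.7% at 350 bp downstream, while control replicate 3 stays at 87.5% and 98.6%.

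The highest summit was downstream of the TSS in 73.6%, 72.2% and 75.0% of these domains in the controls and in 68.1%, 68.1% and 70.8% in 4xIOP, with a median position between 238 and 270 bp downstream in each list. The groups did not overlap (73.6 ± 1.39% against 69.0 ± 1.60%, SD, n = 3 each). The nearest lists, control replicate 2 and 4xIOP replicate 3, stood at 52 and 51 of the 72 domains. No test is given, as 46 of the 79 domains reached 2000 bp only in control replicate 3, the list with the highest share. The difference of -4.63 percentage points was -4.17 between the 2 lists whose name and label match, -5.56 among the lists with longer fragments and -2.78 among those with shorter ones. In Hnrnpa0 the highest summit lay at -235 to -208 bp (upstream) in all lists, and in Insm1 at 879 to 1300 bp (downstream). In Msl1 it lay at -763 to -607 bp in 4 lists and at 523 to 590 bp in 2 (control replicate 3 and 4xIOP replicate 1), so that a summit can move from one side of the TSS to the other between lists.

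Domains and narrower regions differed in opposite directions by fold and by fragments. The fold enrichment at the highest summit of a domain, which is relative to the local background of the same library, was placed among all peaks of its list as a percentile. The median percentile of the domains was 53.4, 59.5 and 68.8 in the controls and 49.7, 51.5 and 46.9 in 4xIOP, while that of the narrower shared regions with a coding TSS was 80.1, 78.3 and 88.4 and 78.5, 78.0 and 73.6. In fragments the order was the opposite. The domains had a median of 50, 54 and 103 fragments at the summit in the controls and 49, 47 and 40 in 4xIOP, against 35, 37 and 70 and 33, 31 and 29 in narrower regions. The local background of the domains, as a multiple of the mean over the genome, was 4.77, 3.45 and 7.45 and 5.16, 4.73 and 3.17, about 2 times that of narrower regions (2.33, 1.78 and 3.30 and 2.54, 2.32 and 1.71). In every list the domains thus had more fragments, a higher background and a lower fold percentile than narrower regions. Fragments and fold are each the highest over the peaks of a region, so they can come from different peaks. The 45 shared regions of at least 2000 bp without a coding TSS had a still higher background (6.28, 4.14 and 8.05 in the controls, 6.60, 6.37 and 3.52 in 4xIOP). Their fragments were 53, 56 and 84 and 49, 54 and 41.

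**Figure D4:**
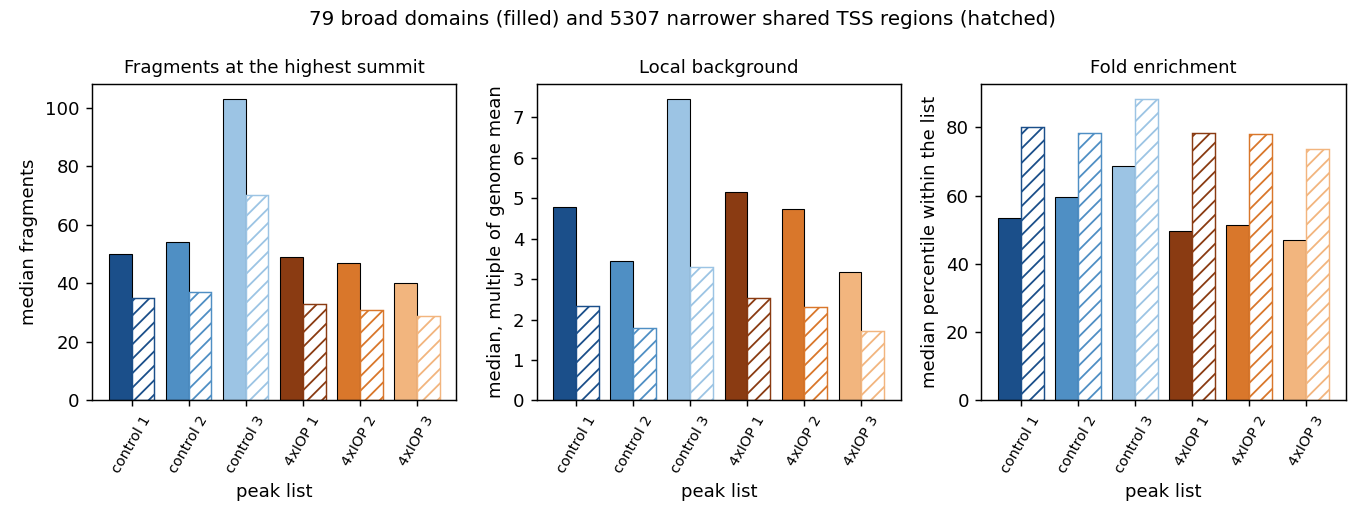
Filled bars are the 79 domains and hatched bars the 5307 narrower shared regions with a coding TSS, for each list on the x axis, as medians of summit fragments, of local background (multiple of the genome mean) and of the fold percentile within the list. In all 6 lists the filled bars are higher in the first 2 panels and lower in the third.

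The highest fold percentiles were those of Hnrnpa0, an RNA-binding protein of splicing and mRNA stability (chr13:58127502-58129683), Calm2, which encodes calmodulin (chr17:87445767-87447860), and Tmem260 (chr14:48446068-48448107). Hnrnpa0 had a fold of 7.89, 8.38 and 7.74 in the controls and 7.23, 6.34 and 9.62 in 4xIOP. Calm2 had 7.03, 7.94 and 6.39 against 5.82, 6.51 and 9.47. Tmem260 had 6.99, 8.37 and 7.41 against 7.09, 5.88 and 5.59. In the first 2 genes 4xIOP replicate 3 was the highest list, and in Tmem260 it was the lowest.

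The lowest fold percentiles were those of Coro2b, an actin-binding coronin (chr9:62535015-62537199), Hk2 (chr6:82772205-82774277) and Msi1, an RNA-binding protein of neural progenitors (chr5:115428966-115430984). Coro2b had a fold of 2.62, 2.38 and 2.63 in the controls and 2.22, 2.20 and 2.50 in 4xIOP. Hk2 had 2.46, 2.58 and 2.87 against 2.75, 2.44 and 2.66, and Msi1 had 2.66, 2.81 and 3.03 against 2.48, 2.46 and 3.41. Msi1 still had 83, 103 and 171 fragments at its summit in the controls and 78, 76 and 72 in 4xIOP, more than the median domain in every list.

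The comparison of repeated pressure with control asked whether the domains differed in height between groups. No domain was called. Heights were compared over the 10529 shared regions by limma on normal scores of ranks within each list, which removes differences in scale between lists. At an adjusted p under 0.05, 0 of 10529 regions were called in either direction (0.0%), and at an unadjusted p under 0.05, 158 were higher in 4xIOP (1.5%) and 176 lower (1.67%). Of the domains, 1 was higher and 0 lower at that unadjusted level, and their median difference was 0.04, against 0.01 over all shared regions. This median had no stable sign: it was -0.10 without control replicate 3, -0.07 without 4xIOP replicate 3 and -0.07 on ranks of summit fragments.

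By this limma fit, the smallest p for a higher domain was that of Bcl6 and Gm37419 (chr16:23987445-23989548; Bcl6 is a transcriptional repressor), with a fold of 3.79, 4.22 and 6.58 in the controls and 6.42, 6.40 and 4.36 in 4xIOP (difference 0.87 ± 0.37 SE on the score, limma unadjusted p = 0.0326, adjusted p = 1). The difference ranged from 0.65 to 1.29 when 1 list was left out, and was 0.11 on ranks of summit fragments. On the fold itself the groups overlapped, and control replicate 3 was the highest. The next, Ppp2r2b, a regulatory subunit of a protein phosphatase, and Tlk2 had differences of 0.64 and 0.52. The smallest p for a lower domain were those of Nr3c2 (fold 3.24, 3.93 and 3.31 against 3.48, 2.62 and 2.73), Coro2b and Ppt1, a lysosomal thioesterase, at -0.53, -0.44 and -0.41, and the adjusted p of each, by limma, was 1.

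The median fold percentile per list was 60.6 ± 7.72 in the controls and 49.4 ± 2.32 in 4xIOP (SD, n = 3 each), a difference of -11.2 points. It is given without a test, as 46 of the 79 domains reached 2000 bp only in control replicate 3, the list with the highest percentile. This percentile is taken among all peaks of a list and so also moves with their number. With the same number of peaks (16195) from each list the difference was 0.79. It was -2.82 among the lists with longer fragments and -17.2 among those with shorter ones. Without control replicate 3 it was -7.09. The number of peaks per domain, likewise without a test, was 1.65 ± 0.361 in the controls and 1.85 ± 0.0219 in 4xIOP, and without control replicate 3 the difference of 0.198 became -0.00633.

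Covered length is what the merged width is built from, and most domains reached 2000 bp in control replicate 3 alone, so that the choice of members itself favours longer cover in that control list. The values of the domains by group are therefore a description, from which no difference between groups is read. In limma on within-list scores over all shared regions, at an adjusted p under 0.05, 0 of 10529 regions were called (0.0%). At an unadjusted p under 0.05, 155 regions were higher in 4xIOP (1.47%) and 300 lower (2.85%), and of the domains 1 was higher and 6 lower. The median difference of the domains was -0.21, against 0.05 over all shared regions, and -0.04 and 0.01 without control replicate 3, when 2 domains were higher and 2 lower. In bp, every 4xIOP list lay below every control in 15 of 79 domains (19.0%), against 11.3% of all shared regions, and every 4xIOP list lay above in 0 domains, against 0.218%. By rank within the list, 9 domains lay below (11.4%), against 3.57% of all shared regions, and 3 lay above (3.80%), against 5.75%. The mean covered length per list was 1649 ± 388 bp in the control lists and 1316 ± 170 bp in 4xIOP (SD, n = 3 each), a difference of -332 bp that was -109 bp without control replicate 3, -36.3 bp among the lists with longer fragments and -624 bp among those with shorter ones. With fragment class as a covariate in limma the median difference of the domains was -0.21, and with the same number of peaks from each list the difference in mean covered length was -349 bp.

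In the order of the limma fit, the first domain with shorter cover in 4xIOP was that of Atrnl1, an attractin-like membrane protein (chr19:57609868-57611879), with 1499, 1594 and 2012 bp in the control lists and 1134, 736 and 698 bp in 4xIOP. Pqlc1 followed with 1545, 1323 and 1851 bp against 977, 1001 and 762 bp, and then Dnmt3a, the de novo DNA methyltransferase (chr12:3806517-3808829), with 1945, 1582 and 2296 bp against 1431, 1060 and 1175 bp. In these 3 the groups did not overlap, as in 11.3% of all shared regions, and control replicate 3 was the longest list. They were picked by their limma p on covered length, which the merged width is built from. None was called (limma adjusted p 0.783, 0.947 and 0.979). The first domain with longer cover was that of Nrip1, a corepressor of nuclear receptors (chr16:76372025-76374127), with 1141, 1533 and 1748 bp against 1925, 1771 and 1398 bp. Zdhhc17, a palmitoyltransferase, and Etnk1 followed.

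The gene lists had few members in domains, and the shares over all coding genes were 39.5% with a peak within 2500 bp of a TSS in all 6 lists, 26.2% with a TSS in a shared region and 0.392% in a domain. Of 17 transcription factors of photoreceptors, 11 had a peak within 2500 bp of a TSS in all 6 lists, 4 had a TSS inside a shared region and 1, Esrrb, a nuclear receptor of rods, was in a domain (chr12:86421688-86423741). Esrrb had 1223, 1620 and 1933 bp in the control lists and 1562, 2010 and 576 bp in 4xIOP, with a fold of 2.77, 3.38 and 3.41 against 3.04, 2.75 and 2.56. Its cover varied more between lists of a group than between the groups. Of 32 photoreceptor proteins, 21 had a promoter peak in all 6 lists but 0 had a TSS inside a shared region. Of 33 transcription factors of inner retinal neurons 2, of 14 ganglion cell genes 1 and of 22 Müller glia genes 1 had a TSS in a shared region, and 0 of them in a domain. The widest shared region in these lists outside Esrrb was that of Prdm8, at 1803 bp.

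Of 28 chromatin regulators, 25 had a promoter peak in all lists, 16 a TSS in a shared region and 2 were in domains (Arid1b and Ncor1), and of 28 splicing factors the counts were 28, 22 and 1 (Hnrnpa0). Of 42 cytosolic ribosomal protein genes, 18 had a TSS in a shared region, of median width 778 bp, and 0 were in a domain. Of 28 TNF and NF-kB response genes 8 had a TSS in a shared region, the widest being Nfkbia (1861 bp), and of 23 immediate-early genes 1 did (Dusp1, 1355 bp). Neither list had a member in a domain. Among markers of other cell types, 0 of 12 pigment epithelium, 0 of 10 endothelial and 0 of 7 lens genes had a TSS in a shared region. At the share of all coding genes in a domain, lists of this size are small for a count of members.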

How the data were processed

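ChIP-seq for H3K27ac was represented by 1 peak list per retina (3 control, 3 4xIOP), called for that sample alone. Per the labels, processing used STAR 2.7.8a, MACS2, HOMER, edgeR and bedtools 2.29.2 with build mm10, with no role or order stated, and the calling threshold is not given in the sources used here. The deposited lists hold the fold enrichment (a ratio to local background), −log10 p and −log10 q of each peak. They give no read totals, so fragments at each summit were recovered from the deposited fold and −log10 p (tolerance 0.001, over 99.99% of peaks in each list).

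Peaks were merged where they overlapped, and TSS came from the GENCODE vM21 basic annotation of GRCm38. Lists were put in a class of longer or shorter fragments by their shortest peak (200 bp). limma 3.58.1 in R 4.3.3 was fitted to normal scores of within-list ranks over 10529 shared regions, with Benjamini-Hochberg adjustment, after tests on simulated data. Per-list values of summit position, peak number and height were compared by two-sided exact permutation (smallest p 0.1). No p is given for these, since the choice of members bears on each of them. P-values measure the spread between retinas as labelled. Domains were named as the 12 of largest mean covered length, 3 in each direction by limma p for height and for cover, those at the width limit, up to 4 of each gene list, 3 with most genes, and the 3 most and least even and highest and lowest in fold. Stretches for printing were the first in order of covered length or CpG ratio that overlapped no exon of GENCODE or RefSeq. A few items, among them 1 such stretch and the count for the microglia list, are not reported here. The domains and gene lists were chosen with earlier results of these data known. Same-numbered control and 4xIOP lists had correlations of -0.0208, -0.0571 and -0.146 in their deviations, and the labels do not tie numbers to animals, so no pairing was used.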

Additional observations from a re-analysis of the deposited data

How the results depend on the processing

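The number of domains (79) followed the width and the lists. It was 665 at 1500 bp, 2 at 3000 bp, 605 when peaks up to 500 bp apart were merged, and 30 to 79 when 1 list was left out (30 without control replicate 3, 69 to 79 otherwise), while the other alternatives gave 65 to 88. With only the 2 lists whose own name matches the label, the difference (4xIOP minus control) in covered length was -970 bp, in domains of at least 2000 bp in a single list -51, in peaks per domain 0.62, in summits downstream -4.17 percentage points and in median fold percentile -21.9. Over all 6 lists the difference in median fold percentile, -11.2, became 0.79 with the same number of peaks from each list. The share of summits downstream had a difference of 0 for the 2 domains of 3000 bp or longer. Leaving out each list gave -455 to -109 bp, -26 to -2.5 domains, -0.00633 to 0.335 peaks, -5.56 to -3.94 percentage points and -14.8 to -7.09 percentile points. limma called 0 regions under all alternatives for height and cover, with 0 calls also with a replicate block. The block left the difference in covered length at -332 bp and in domains at -18. Without the Gm21738 domain, an alternative chosen after seeing the data, no direction changed.

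Domains found on 5 lists, also an alternative chosen after seeing the data, were compared with the list left out. A peak of that list overlapped them, by any length, in 100% of cases for 5 lists and in 98.7% for 4xIOP replicate 3. The median share of their width covered there was 94.2% in control replicate 3 and 52.2% to 63.7% in the other lists. In the list left out, from 1 of 79 (4xIOP replicate 3) to 13 of 30 (control replicate 3) reached 2000 bp. Depth was known only at summits, so a domain that is split into several peaks in a list cannot be told apart from one covered too thinly there to be called as one.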

Other observations

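Another 45 shared regions were 2000 bp or longer without a coding TSS. Of these, 15 lay within 2500 bp of a coding TSS, 21 lay over 10000 bp away and 9 held the TSS of a noncoding gene. Their median mean fold percentile was 31.5, against 53.7 for the domains, and their median ratio of observed to expected CpG was 0.290. The widest, at chr17:39843093-39848676 (5584 bp), held the TSS of Gm42418, Gm26917 and AY036118, and its summit fragments ranged from 56 to 141 over the lists. Another held the TSS of Mir9-2 and Gm33366, of which the first encodes a microRNA of neurons and progenitors, at chr13:83737516-83740051 (2536 bp), with cover from 966 to 2269 bp over the lists.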
